A study of Homo sapiens with 6 samples.

Results

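The UGT1A locus on chromosome 2 was followed in LNCaP prostate cancer cells with and without knockdown of RB. The 9 members, UGT1A1 and UGT1A3 to UGT1A10, were taken by transcript ID: each has 1 row, so that 9 of the 22279 rows of the count table belong to the locus. They were chosen with their difference between the groups in view, so their values in shRB and shCON libraries are a description and carry no test. LNCaP is an established human prostate cancer line that responds to androgen. Of the 6 RNA-seq libraries, shRB 1 to 3 came from cells with a hairpin against RB, the retinoblastoma protein that restrains the cell cycle, and shCON 1 to 3 from cells with its control. All 6, controls included, had been under a treatment labelled CDT for 72 h, listed as arresting the cell cycle, and the series calls the condition hormone deficient. With a single hairpin label per group, loss of RB and other properties of the hairpin or cell population cannot be told apart. Separate cultures are not named in the labels, and the p-values below reflect only how far these libraries differ among themselves, which may be technical.

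UDP-glucuronosyltransferases are enzymes of the endoplasmic reticulum that attach glucuronic acid, taken from UDP-glucuronic acid, to bilirubin, steroids, drugs and dietary phenols, which makes them water soluble and ready for export. The UGT1A enzymes come from a single locus in which each member has its own promoter and its own variable first exon, spliced to a common set of later exons. The first exon encodes the part that binds the substrate, and the common exons encode the part that binds UDP-glucuronic acid. Liver and gut are the main sites of UGT1A expression, whereas androgens in the prostate are glucuronidated mainly by enzymes of the UGT2B subfamily.

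The 9 transcripts were 2333 to 2479 bases long in GENCODE release 29 and had 5 exons each on the plus strand. All 9 share the same 1478 bases of later exons. The first exons measured 855 to 1000 bases, 36.6% to 40.3% of a transcript. A read in the shared exons therefore cannot be assigned to a member. The bases around the end of the first exon are shown because they mark where the members become the same. The 30 bases before the junction are in lower case, the 30 bases of the shared second exon are in capitals, and members stand in their order along the locus (GENCODE release 29 transcripts, 5′ to 3′).
UGT1A8: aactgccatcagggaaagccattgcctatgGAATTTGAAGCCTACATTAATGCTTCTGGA
UGT1A10: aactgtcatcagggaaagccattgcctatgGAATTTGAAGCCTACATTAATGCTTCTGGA
UGT1A9: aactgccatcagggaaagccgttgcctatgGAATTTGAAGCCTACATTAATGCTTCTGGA
UGT1A7: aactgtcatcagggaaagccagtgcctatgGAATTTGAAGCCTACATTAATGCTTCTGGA
UGT1A6: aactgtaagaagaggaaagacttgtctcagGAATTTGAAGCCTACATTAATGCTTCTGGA
UGT1A5: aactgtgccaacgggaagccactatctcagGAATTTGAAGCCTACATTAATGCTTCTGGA
UGT1A4: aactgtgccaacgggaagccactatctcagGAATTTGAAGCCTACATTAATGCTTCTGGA
UGT1A3: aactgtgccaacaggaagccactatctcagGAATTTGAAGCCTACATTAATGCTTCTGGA
UGT1A1: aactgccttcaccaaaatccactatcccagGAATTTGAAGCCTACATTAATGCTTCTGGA
The capitals were identical in all 9. Before the junction, the last 800 bases of the first exons fell into related sets. UGT1A7 to UGT1A10 were 92.1% to 94.5% identical to each other, and UGT1A3, UGT1A4 and UGT1A5 were 93.0% to 93.9% identical. The other 27 pairs were 51.9% to 62.2% identical. Of all 50-base stretches in the first exon of UGT1A8, 29.6% also occurred in the first exon of another member, and the share was 20.9% for UGT1A10, 17.1% for UGT1A9, 8.06% for UGT1A7 and 0 for UGT1A1 and UGT1A6. Short reads from such stretches cannot be placed on a single member either.

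**Figure D1:**
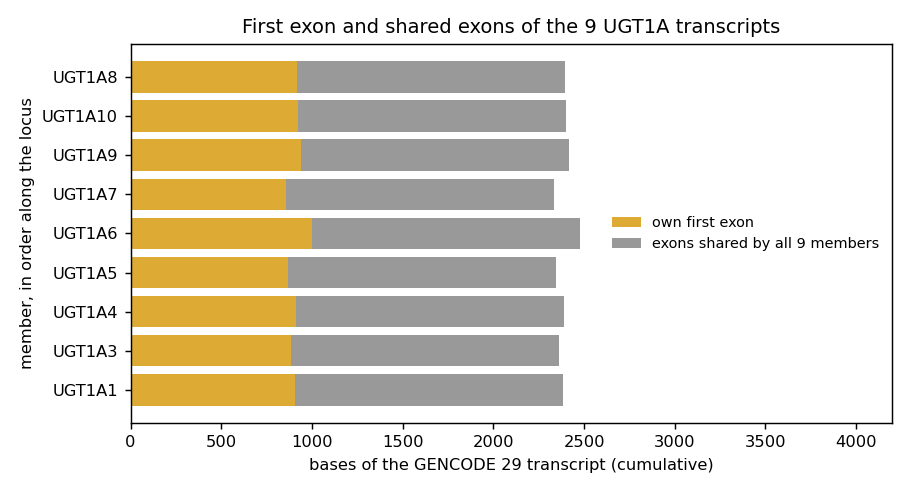
Bases of the first exon (yellow) and of the exons shared by all 9 members (grey) in each UGT1A transcript; the x axis is the cumulative length in bases and members are in order along the locus. The grey part is 1478 bases in every row, and the first exons range from 855 to 1000 bases.

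Library totals ranged from 6115310 to 20091488 counts in shCON and from 9780579 to 10898768 in shRB. RB1 mRNA was 54.6 ± 1.93 CPM (the count scaled to the TMM-normalized depth of its library) in shCON against 5.01 ± 1.06 CPM in shRB (SD, n = 3 each), and each library matched its label. Of 11712 rows tested with edgeR at an adjusted p under 0.05, 12.8% were higher and 12.5% lower in shRB, 25.3% in all. Prostate luminal markers were abundant, at 5662 to 6507 CPM summed over 10 genes in a library; 3 rose, KLK3 and KLK2 among them, 3 fell, FOLH1 and STEAP2 among them, and 4 did not pass. KLK3, prostate-specific antigen, rose from 421.3 ± 56.2 to 575.4 ± 13.8 CPM (edgeR adjusted p = 0.0027). Liver markers, from the tissue in which UGT1A is best known, summed to 17.4 to 18.3 CPM over 13 genes in shCON and to 16.0 to 20.01 CPM in shRB. Of the 5 tested, 2 rose (ALB and CYP2E1), 2 fell (TTR and APOA1) and 1 did not pass. Apolipoprotein B (APOB) was at 0 in all libraries and albumin (ALB) rose from 2.59 ± 0.27 to 6.59 ± 1.13 CPM (SD, n = 3; edgeR adjusted p = 0.00029). Transthyretin (TTR) and APOA1, the other way round, fell from 6.62 ± 0.85 to 2.21 ± 0.58 and from 1.31 ± 0.16 to 0.49 ± 0.082 CPM (edgeR adjusted p = 0.00011 and 0.0074), and their part in the UGT1A difference was not tested.

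The UGT1A locus was covered by few reads in every library. UGT1A10 (ENST00000344644), the row with the largest total and therefore taken as the signal of the locus, had 18, 10 and 3 counts in shCON 1 to 3, against 17, 21 and 23 counts in shRB 1 to 3. UGT1A8 (ENST00000373450) had 19, 10 and 3 against 15, 20 and 24 counts. UGT1A1 (ENST00000305208), which encodes the bilirubin-conjugating enzyme, had 17, 10 and 3 against 15, 21 and 20. In raw counts UGT1A10 totalled 31 in shCON and 61 in shRB, and shRB 2 and shRB 3 exceeded every shCON library. Counts in shRB 1 did not exceed those in shCON 1, the deepest library, so that pair differed in the same direction only after scaling to depth. The rows of UGT1A3, UGT1A4, UGT1A5 and UGT1A9 carried identical counts in all 6 libraries (17, 10 and 3 against 13, 19 and 20). UGT1A6 differed from them by 1 count in shCON 2, and UGT1A7 by 2 counts in shCON 1. The 9 rows therefore read the same molecules and are 1 signal, not 9 observations.

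Scaled to depth, UGT1A10 was 0.88, 1.00 and 0.49 CPM in shCON 1 to 3 against 1.55, 2.23 and 2.22 CPM in shRB 1 to 3. All shRB libraries lay above all shCON libraries, with shRB 1 the lowest of its group and shCON 3 the lowest of all. The means were 0.79 ± 0.27 and 2.00 ± 0.39 CPM (SD, n = 3 each), a ratio of 2.52 or 1.33 on the log2 scale (log2 ratio of the mean CPM). In bulk RNA, a change in the number of cells that express a gene and a change in its RNA per cell cannot be told apart. Over the 9 rows the ratio ran from 2.11 (UGT1A6) to 2.52 (UGT1A10), with a median of 1.14 on the log2 scale. Over all rows tested the median log2 fold change was −0.0062, as fitted by edgeR and so by another estimator. The groups did not overlap in any of the 9 rows; since the rows were chosen on this contrast, nothing is read from that count, and 21.0% of all rows tested had every shRB library above every shCON library, 20.2% every one below. All 9 rows passed the filter on low counts. They did so mainly through shRB, since a row had to reach 0.99 CPM in 3 libraries, and the UGT1A rows reached it in 3 shRB libraries and in shCON 2 alone among the controls. At a minimum count of 50 in place of 10, 0 of the 9 rows would have entered the fit. In mean CPM over the 6 libraries, not scaled to transcript length, 48.8% to 49.3% of the 22279 rows were lower. Those rows include many at or near 0, since 16586 had any count and 11712 were tested. The share is therefore not a rank among expressed genes.

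**Figure D2:**
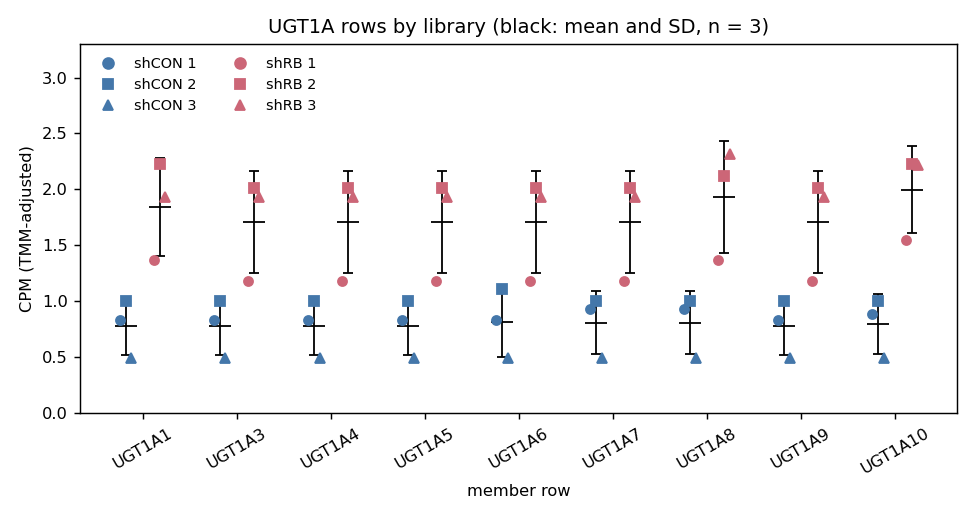
CPM of each UGT1A row (x axis) in the 3 shCON (blue) and 3 shRB (red) libraries; black bars give the mean and SD of each group. Every row has nearly the same points, from 0.49 CPM in shCON 3 up to 2.32 CPM for UGT1A8 in shRB 3.

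The counts allow the shared exons and the first exons to be separated. In each library the lowest of the 9 rows was taken as the reads of the shared exons. What a row has above it was taken as reads of that member's own first exon. This holds if every row counted all reads in its transcript's exons, and at least 1 first exon had none. UGT1A8 and UGT1A10 also have 11 and 6 bases outside both parts, and the other members 0 or 1. Reads that reach those bases are not separated from first-exon reads. The shared exons had 17, 10 and 3 reads in shCON 1 to 3 but 13, 19 and 20 in shRB 1 to 3. As CPM these were 0.83, 1.00 and 0.49 against 1.18, 2.01 and 1.93 CPM, with means of 0.78 ± 0.26 and 1.71 ± 0.46 (SD, n = 3) and a ratio of 2.20. The exact 95% Poisson interval, which covers counting error only, was 0.48 to 1.85 CPM in shCON 2 and 0.63 to 2.02 CPM in shRB 1, the nearest libraries of the groups. These intervals overlap widely, so at this depth those 2 libraries cannot be told apart. In shCON 3, the shallowest library, it ran from 0.10 to 1.43 CPM. Without shCON 3 the UGT1A10 ratio was 2.12, and with any 1 of the 6 libraries left out it ranged from 2.12 to 2.91.

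First exons gave 26 reads in all. UGT1A10 had 10 of them (1, 0 and 0 in shCON 1 to 3 against 4, 2 and 3 in shRB 1 to 3) and UGT1A8 had 9 (2, 0 and 0 against 2, 1 and 4). Together they held 73.1% of the first-exon reads. Both encode enzymes known mainly from the gut, outside the liver, and their first exons are the first and the second along the locus. For UGT1A10, 9 of its 10 first-exon reads were in shRB. Those reads give its row the largest total, so the rule for the locus signal also took the largest ratio of the 9 rows. UGT1A1 had 0 first-exon reads in shCON and 2, 2 and 0 in shRB 1 to 3. UGT1A7, another gut form, had 2 in shCON 1 alone, and UGT1A6, which conjugates small phenols, had 1 in shCON 2 alone. UGT1A3, UGT1A4, UGT1A5 and UGT1A9 had no first-exon read in any library, which at these counts does not show that they are silent. Summed over members, first-exon reads were 0.115 ± 0.123 CPM in shCON against 0.645 ± 0.103 CPM in shRB (SD, n = 3).

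First exons made up 6 of 36 locus reads in shCON, or 16.7% (exact 95% binomial interval 6.37% to 32.8%), and 20 of 72 in shRB, or 27.8% (17.9% to 39.6%). The intervals of the groups overlap. They treat pooled reads as independent and leave out the spread between libraries, so no test of the groups is read from them. Library shCON 1 alone gave 5 of the 6 control first-exon reads, a share of 22.7%, while shCON 3 had 0. The lowest share with the RB hairpin was 20.8% (shRB 2), and the highest was 38.1% (shRB 1). Over all libraries the share was 24.1% (16.4% to 33.3%, pooled in the same way). Reads spread evenly along full-length transcripts would give the 36.6% to 40.3% that first exons take of the length. How reads that match several first exons were counted is not given in the sources used here. The values rest on 3 to 27 reads a library.

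**Figure D3:**
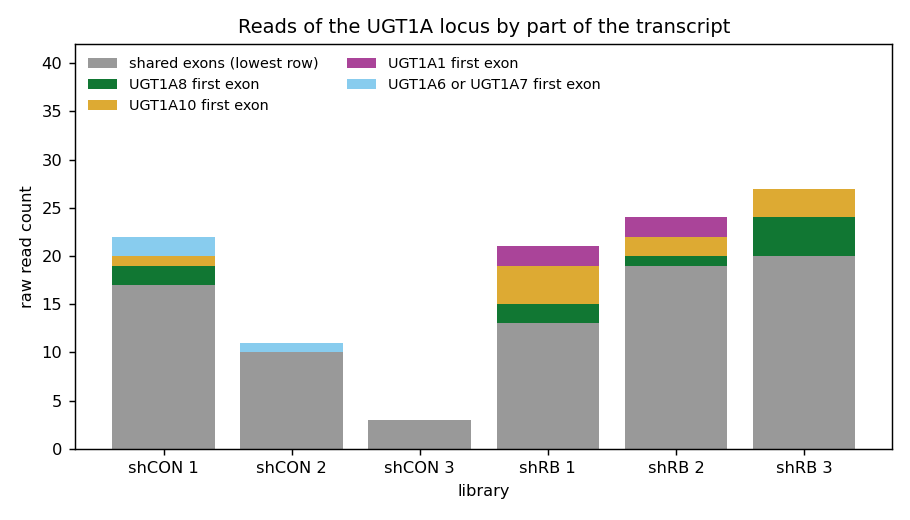
Raw reads of the UGT1A locus in each library (x axis), stacked by part of the transcript: shared exons in grey, and first exons of UGT1A8 (green), UGT1A10 (yellow), UGT1A1 (purple) and UGT1A6 or UGT1A7 (light blue). Shared exons dominate every bar, and first-exon reads number 0 in shCON 3 and 8 in shRB 1; counts are not scaled to depth.

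The other UDP-glycosyltransferases moved in both directions. Of 13 genes on that list, 9 had a row and 4 were tested, of which 2 rose and 2 fell in shRB by edgeR. The shares over all rows tested were 12.8% higher and 12.5% lower. UGT2B17, which conjugates testosterone and dihydrotestosterone, fell from 371.9, 326.4 and 345.1 CPM in shCON 1 to 3 to 171.1, 146.1 and 162.8 in shRB 1 to 3 (log2 fold change −1.12 ± 0.081 SE, edgeR adjusted p = 5.7e-07). UGT2B15, which also conjugates androgens, fell from 194.9 ± 10.8 to 142.9 ± 17.2 CPM (−0.45 ± 0.090, edgeR adjusted p = 0.0029). UGT2B11 rose from 5.57 ± 1.19 to 19.0 ± 2.86 CPM (1.81 ± 0.17, edgeR adjusted p = 5.1e-06), and UGT8, which attaches galactose to ceramide in the making of myelin lipids, from 4.41 ± 0.74 to 11.7 ± 0.52 (1.39 ± 0.15, edgeR adjusted p = 2.5e-05). The 4 calls held with each library left out in turn. UGT2B genes are close paralogs, so their counts may share reads.

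Levels of named genes were compared with each other only per kilobase of transcript. On that scale UGT1A10 stood at 0.33 ± 0.11 CPM per kb in shCON and 0.83 ± 0.16 in shRB (SD, n = 3). The level of UGT2B17 per kb was 509 times that of UGT1A10 in shCON and 92.8 times in shRB. For UGT2B15 the ratios per kb were 285.3 and 83.0, for UGT2B11 8.11 and 10.9, and for UGT8 3.29 and 3.45. UGT1A10 was thus the lowest of these 5 in both groups. UGT2B28, UGT2B4, UGT2B7, UGT2A3 and UGT3A2 had 57, 36, 19, 3 and 1 counts over the 6 libraries and were not tested. UGT2B28 and UGT2B4, with reads in every library, stood at 0.50 ± 0.065 and 0.36 ± 0.15 CPM per kb in shCON. In shRB they stood at 0.43 ± 0.35 and 0.13 ± 0.034. UGT1A10 was thus below both in mean in shCON and above both in shRB, all on few counts.

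**Figure D4:**
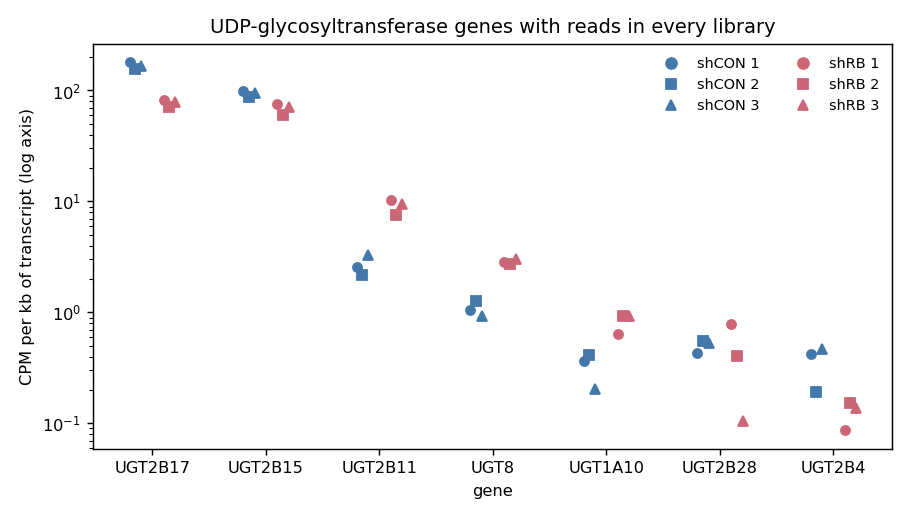
Level per kb of transcript (y axis, log scale) of the UDP-glycosyltransferase genes with reads in every library, with UGT1A10 standing for its locus; each point is a library. UGT2B17 and UGT2B15 are lower in shRB (red) than in shCON (blue), and UGT2B11, UGT8 and UGT1A10 are higher. UGT2B28 and UGT2B4, on few counts and not tested, are also shown.

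Among transcription factors known to act on UGT1A promoters, 15 of 22 in the table were tested. By edgeR 3 rose, 3 fell and 9 missed the threshold, with a median log2 fold change of −0.054. Beside this, 12.8% of all rows tested rose and 12.5% fell. AHR, the receptor of dioxins and other aryl hydrocarbons and an inducer of UGT1A1 and UGT1A6, fell from 9.02, 10.3 and 11.3 CPM in shCON 1 to 3 to 4.09, 2.97 and 4.05 CPM in shRB 1 to 3, without overlap (−1.42 ± 0.17, edgeR adjusted p = 6.0e-05). The vitamin D receptor VDR rose from 25.1 ± 2.57 to 37.8 ± 0.75 CPM (0.59 ± 0.10, edgeR adjusted p = 0.00094). Further calls, named after their values were seen, were ARNT (the partner of AHR), which fell by 0.26 on the log2 scale, and PPARG and NR1I3 (the constitutive androstane receptor CAR), which rose by 0.64 and 0.60. The lower count was 5 with no filter on low counts, 4 without shRB 2 and 2 without shCON 1, shCON 2, shCON 3 or shRB 1. The pregnane receptor NR1I2 had 1 count in all, and HNF4A was at most 0.033 CPM in group mean.

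Genes that share inducers with UGT1A had calls in both directions, as had all rows tested (12.8% higher and 12.5% lower). Of 4 tested AHR targets, 1 rose, 1 fell and 2 missed the threshold, with a median of 0.11. NQO1, a quinone reductase that AHR and NRF2 both induce, rose from 204.0 ± 2.86 to 257.6 ± 7.005 CPM (0.34 ± 0.067, edgeR adjusted p = 0.0027), while CYP1A1, the classic AHR target, fell from 6.89 ± 1.08 to 4.27 ± 1.09 (−0.65 ± 0.20, edgeR adjusted p = 0.031). CYP1A1 lost its call under DESeq2 (adjusted p = 0.075) and without shCON 2 (0.081), shCON 3 (0.104), shRB 1 (0.097) or shRB 3 (0.117). The AHR repressor AHRR was 3.77 ± 0.97 and 4.04 ± 0.39 CPM (edgeR adjusted p = 0.56).

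Of 19 tested targets of NRF2, the oxidative stress factor that also induces UGT1A genes, 4 rose, 3 fell and 12 missed the threshold. Their median was 0.16, and over all rows tested 12.8% rose and 12.5% fell. GCLC, the catalytic subunit of glutathione synthesis, fell from 48.8 ± 1.54 to 33.2 ± 3.58 CPM (edgeR adjusted p = 0.0013), and transketolase TKT rose from 551.3 ± 26.8 to 711.2 ± 77.7 (edgeR adjusted p = 0.0064). Between 2 and 7 rose with 1 library left out: 2 without shCON 1 or shCON 2, and 7 without shRB 2. Only 1 fell without shCON 1, shCON 2, shCON 3, shRB 1 or shRB 3, and 6 fell with no filter on low counts. Of 4 tested targets of the drug receptors PXR and CAR, 1 rose, 0 fell and 3 missed the threshold, with a median of 0.093, and 2 rose without shRB 2, when the esterase CES2 passed (33.9 ± 2.90 and 40.8 ± 0.37 CPM, edgeR adjusted p = 0.064 with all libraries and 0.022 without shRB 2). At an unadjusted p under 0.05, 0 of the list fell, and DESeq2 also called 0 lower. The rise was in ALAS1, which makes the precursor of haem (79.6 ± 4.48 to 114.7 ± 2.29 CPM, edgeR adjusted p = 0.00025). CYP2B6, CYP2C8, CYP3A7 and the drug pump ABCB1 were at 0 in every library.

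The supply of the sugar donor showed small changes in both directions, beside 12.8% higher and 12.5% lower over all rows tested. Of 12 tested genes from glucose to UDP-glucuronic acid, its use and its release, 2 rose, 3 fell and 7 missed the threshold, with a median of 0.024. UGDH, which makes UDP-glucuronic acid, was 87.7 ± 5.15 and 89.6 ± 3.58 CPM (0.033 ± 0.078, edgeR adjusted p = 0.79; named after its values were seen). The hexokinase HK2 rose from 21.4 ± 1.15 to 28.4 ± 1.10 CPM and phosphoglucomutase PGM1 from 89.5 ± 5.31 to 112.3 ± 11.1, whereas HK1 fell from 215.2 ± 12.9 to 176.2 ± 13.1 (edgeR adjusted p of 0.010, 0.014 and 0.017). PGM1 lost its call without shCON 1 (0.085), and HK1 without shCON 2 (0.086), shCON 3 (0.073), shRB 1 (0.078) or shRB 3 (0.061). Fewer of the list fell without shCON 1 or shCON 2 (1 each) and without shCON 3, shRB 1 or shRB 3 (0 each), and 1 rose without shCON 1. Under DESeq2, 1 of the list fell.

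**Figure D5:**
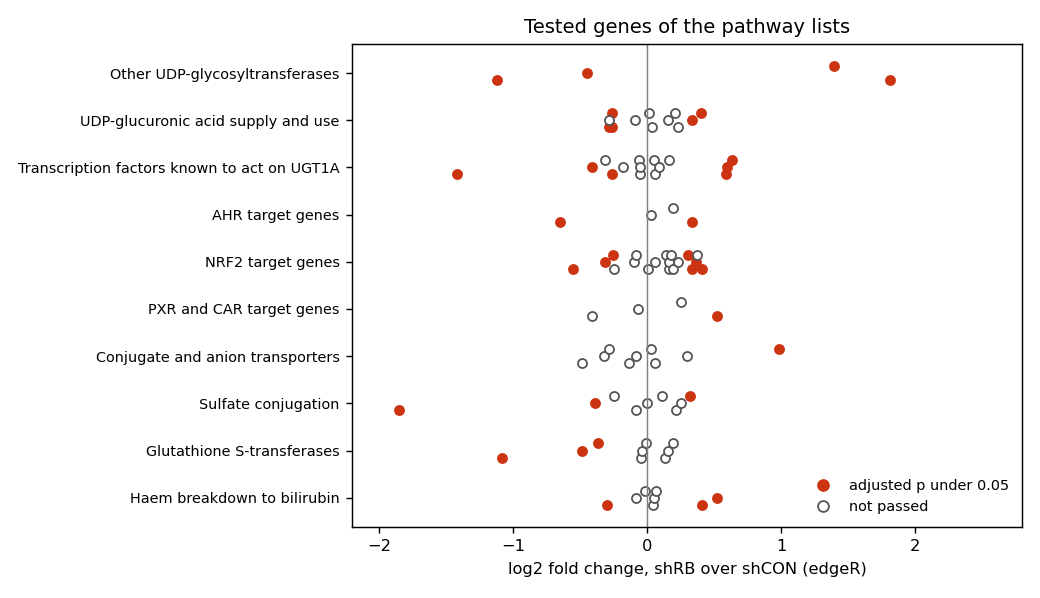
Log2 fold change of shRB over shCON (x axis, edgeR) for each tested gene of the 10 pathway lists (y axis); filled red points passed an adjusted p of 0.05 and open points did not. Each list but 3 has calls on both sides of 0, beside 12.8% higher and 12.5% lower over all rows tested. Transporters and PXR or CAR targets have only a rise, and glutathione S-transferases only falls.

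Export and the other conjugation routes were sampled in the same way, beside 12.8% higher and 12.5% lower over all rows tested. Of 9 tested transporters of conjugates and anions, 1 rose, 0 fell and 8 missed the threshold, with a median of −0.081. The rise was in SLC22A3, an organic cation transporter (52.4 ± 1.30 to 103.9 ± 1.44 CPM, edgeR adjusted p = 9.4e-07), and not in an exporter of glucuronides. Lower calls numbered 0 under DESeq2 too, and 1 at an unadjusted p under 0.05. Without shCON 2 or without shRB 2, a second rise was called, in SLCO4A1 (28.3 ± 3.37 and 35.04 ± 2.39 CPM, edgeR adjusted p = 0.061 with all libraries). Without shRB 1, 1 fell, SLCO5A1 (23.1 ± 1.05 and 18.5 ± 2.36 CPM, edgeR adjusted p = 0.059 with all libraries). Both are anion transporters, and both calls were also made with no filter on low counts. ABCC2 and ABCC3, which export glucuronides from liver cells, had group means of at most 0.16 CPM. Of 9 tested genes of sulfate conjugation, 1 rose, 2 fell and 6 missed the threshold, with a median of 0.0013. The phenol sulfotransferase SULT1A1 fell from 16.7, 15.9 and 18.6 CPM in shCON 1 to 3 to 4.28, 5.72 and 4.15 in shRB 1 to 3 (−1.85 ± 0.15, edgeR adjusted p = 2.0e-06), and SUMF1, which activates sulfatases, rose from 89.0 ± 1.71 to 111.2 ± 1.91 (edgeR adjusted p = 0.0053). SULT1A1 has near-identical paralogs with which it may share reads. STS, which removes sulfate from steroids, fell from 18.2 ± 0.69 to 13.8 ± 1.98 CPM (edgeR adjusted p = 0.038) and lost its call under DESeq2 (adjusted p = 0.089) and without shCON 1 (0.089), shCON 2 (0.114), shCON 3 (0.101), shRB 1 (0.058) or shRB 2 (0.078). In those 5 cases 1 of the list fell, and 3 rose without shRB 2.

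Of 9 tested glutathione S-transferases, 0 rose, 3 fell and 6 missed the threshold, with a median of −0.041. The shares over all rows tested were 12.8% higher and 12.5% lower. Higher calls numbered 0 under DESeq2 and at an unadjusted p under 0.05 as well. GSTM3 fell from 227.6 ± 5.48 to 107.6 ± 4.50 CPM (−1.08 ± 0.071, edgeR adjusted p = 2.2e-07), GSTK1 from 91.8 ± 5.16 to 65.4 ± 9.12 (edgeR adjusted p = 0.0032) and GSTZ1 from 89.1 ± 7.53 to 69.0 ± 7.84 (edgeR adjusted p = 0.015). GSTZ1 lost its call without shCON 2 (0.055), shCON 3 (0.087), shRB 1 (0.064) or shRB 3 (0.062), leaving 2 falls. Of 8 tested genes of haem synthesis and breakdown to bilirubin, the substrate of UGT1A1, 2 rose, 1 fell and 5 missed the threshold, with a median of 0.0498. ALAS1 and haem oxygenase HMOX1 (16.5 ± 1.56 to 21.7 ± 1.47 CPM, edgeR adjusted p = 0.019) rose. FECH, which inserts iron to form haem, fell from 258.3 ± 12.3 to 209.5 ± 11.5 CPM (edgeR adjusted p = 0.0089). HMOX1 lost its call without shCON 1 (0.109), shCON 2 (0.067) or shRB 1 (0.051), and FECH without shCON 1 (0.057) or shCON 3 (0.057).

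Of the 6 tested genes nearest to the locus, 1 passed, HJURP, beside 25.3% of all rows tested. Before the locus lie ATG16L1, DGKD and USP40, and after it HJURP, MSL3P1 and TRPM8, as the 3 nearest tested genes on each side. Their median log2 fold change was 0.09. HJURP, a chaperone that loads the centromeric histone, rose from 20.7, 20.8 and 21.5 CPM in shCON 1 to 3 to 33.5, 29.4 and 33.2 in shRB 1 to 3 (0.61 ± 0.10, edgeR adjusted p = 0.00069). The other 5 ranged from −0.13 ± 0.081 (USP40, 78.8 ± 5.70 and 71.8 ± 0.91 CPM) to 0.20 ± 0.18 (TRPM8, 5.10 ± 0.43 and 5.92 ± 1.21) and did not pass (edgeR adjusted p of 0.26 to 0.75). Closer still, DNAJB3, on the minus strand inside the locus, had 2 counts over the 6 libraries, and MROH2A, between the locus and HJURP, had 4.

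RefSeq promoter sequences (GRCh38.p14, 250 bases before to 50 after a start) matched 8 of the 9 members, all but UGT1A10, with 2 starts for UGT1A6. The motif counts therefore do not cover the row taken as the signal of the locus. The build differs from hg19, the build in the submitters' processing notes, so the coordinates below belong to these sequences only. The 9 promoters were 38.0% to 58.0% G and C, below the median of 58.7% over all 35116 promoters. Both strands were searched for a set of motifs, of which 4 are reported here, and an occurrence is a description of the letters, not a bound site. The core of the AHR element, GCGTG, occurred in 6 of the 9 promoters and in 36.5% of all promoters, and the NRF2 element TGACNNNGC in 2 and in 13.3%. E2F motifs (TTTGGCGC, TTTCGCGC or TTTCCCGC) occurred in 0 of the 9 and in 2.74% of all. The TATA motif TATAAA occurred in 1 (11.5% of all), that of UGT1A1. There it lay on the minus strand, as TTTATA at position -92 from the start, and is not read as a TATA box. Nearer the start, the UGT1A1 promoter has a run of TA repeats ending in TATAAG, which the exact letters miss. The search therefore does not show that a promoter lacks a TATA box. The stretches below show the shared AHR core of UGT1A8, UGT1A9 and UGT1A7 in capitals, before the start. It lies on the minus strand as GCGTG and reads CACGC on the plus strand printed here.
UGT1A8 (chr2:233617572-233617631, plus strand): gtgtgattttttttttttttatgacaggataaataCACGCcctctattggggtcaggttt
UGT1A9 (chr2:233671798-233671857, plus strand): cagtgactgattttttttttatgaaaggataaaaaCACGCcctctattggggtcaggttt
UGT1A7 (chr2:233681803-233681862, plus strand): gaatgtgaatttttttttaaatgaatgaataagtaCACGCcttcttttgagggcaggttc
UGT1A9 had no first-exon read in any library, UGT1A7 had 2, and UGT1A8 had 9.

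By the level pattern across the 6 libraries, the genes nearest to UGT1A10 among 9793 tested rows with a mean of at least 5 CPM were KCNK5, OASL, NUAK2, FAM131B and AC010643.1. The Euclidean distances between their centred log2 CPM values and those of UGT1A10 were 0.34, 0.37, 0.42, 0.44 and 0.45, against a median of 1.65 over all candidates. KCNK5, a potassium channel, was 5.39, 6.32 and 4.24 CPM in shCON 1 to 3 against 10.8, 12.5 and 12.5 in shRB 1 to 3. Like UGT1A10 it was lowest in shCON 3 and lower in shRB 1 than in shRB 2 and shRB 3. OASL, an interferon-induced gene, was 3.24, 3.11 and 2.29 against 6.10, 8.59 and 8.59 CPM, and the kinase gene NUAK2 8.34, 10.8 and 7.02 against 17.5, 19.0 and 19.8. These genes were picked for likeness over 6 libraries, in which a difference between the 2 groups dominates, and the order of the distances carries no test.

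Markers of other cell types differed in level. Those of basal prostate cells were low: 4 summed to at most 0.69 CPM in a library, with KRT5 at 0. Leukocyte markers were at 0 throughout in 3 of 6 cases (PTPRC and CD3E among them). Of enterocyte markers, 4 of 7 were at 0 (FABP1, FABP2, APOA4 and CDX1), and sucrase-isomaltase (SI) fell from 36.2 ± 2.84 to 23.2 ± 5.30 CPM (−0.64 ± 0.14, edgeR adjusted p = 0.0052). Stromal markers summed to 16.6 to 20.3 CPM in shCON and 12.3 to 15.9 CPM in shRB, with COL1A2 at 0 and nearly all of the sum in COL1A1 (17.4 ± 1.69 and 13.5 ± 1.76 CPM, edgeR adjusted p = 0.055). CD68 was 5.92 ± 0.91 and 5.07 ± 0.15 CPM (edgeR adjusted p = 0.25). Their part in the UGT1A difference was not tested.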

How the data were processed

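Total RNA of 6 LNCaP libraries was made into TruSeq libraries, per the labels' protocols. The values the authors deposited are unnormalized read counts, listed by transcript ID for every library. The submitters' processing notes name STAR, HOMER, edgeR and hg19, with no version. For annotation, counting options and strand, the setting is not given in the sources used here. By ID, 22182 of 22279 rows matched GENCODE release 29, which describes another build and gave only names, gene order, exon lengths and transcript sequence.

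After filterByExpr (minimum count 10, minimum total 15) and TMM normalization, rows were tested for shRB against shCON with edgeR 4.0.16 (R 4.3.3; glmQLFit, glmQLFTest, group as the only term), with Benjamini-Hochberg adjustment over all rows tested and a threshold of 0.05. The SE is the log2 fold change divided by the square root of F. Fold changes of members are log2 ratios of group mean CPM, with no test. A prior count of 2 went into the log2 CPM of the pattern comparison.

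Named genes were the members, RB1, the 3 smallest p-values in each of 10 lists (all tested genes of the glycosyltransferase list), 3 neighbours a side, 5 nearest patterns, KLK3, ALB and other markers above 1 CPM. Some items that the rule names are not reported here. A few called genes were added after their values were seen, as stated beside them. The members and lists were chosen with earlier results of these data known. Chi-square per degree of freedom between replicates was 2.23 to 11.4, above sampling noise, so no library was a duplicate. It was highest for shRB 2, at 11.3 against shRB 1 and 11.4 against shRB 3. Between shRB 1 and shRB 3 it was 2.31. On simulated counts for this comparison (11602 rows tested, 200 changed), recovery was 18% of rows changed by a factor of 1.25, 80% by 1.5, 88% by a factor of 2 and 96% by a factor of 4, and 11 of 152 calls were false. Alternatives were RLE scaling, DESeq2 1.42.0, other filters, a replicate block, each library left out and, chosen after seeing the data, the shared exons alone. Sequences of promoters are from RefSeq.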

Additional observations from a re-analysis of the deposited data

How the results depend on the processing

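The UGT1A10 log2 ratio of 1.33 was positive under every alternative run. It was 1.33 with RLE scaling, 1.32 with plain library totals and 1.22 and 1.28 as fitted by edgeR and DESeq2. The sum of the 9 rows gave 1.18, and the mean of the members' ratios 1.17. The shared exons alone (an alternative chosen after seeing the data) gave 1.14. With 1 library left out it was 1.08 to 1.54. These runs reuse the same few reads of rows chosen on this contrast, so their likeness is a description and no separate support. With the replicate number as a block it was 1.38, the mean of 0.81, 1.15 and 2.18 within numbers 1 to 3. The locus rests on 3 to 24 counts a row and library, which limits every value of a member, and a minimum count of 50 left no UGT1A row.

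Of 11712 rows tested, 1499 were higher (12.8%) and 1459 lower (12.5%). With the replicate block the counts were 2202 and 2294, and at an adjusted p threshold of 0.01 they were 787 and 793. With 1 library left out they ranged from 863 to 2074 higher and from 912 to 1956 lower, both highest without shRB 2. They moved by over 1.5 times without shCON 1 (863 and 912) and without shCON 3 (969 and 964). Over the pathway lists together, 14 genes were higher and 18 lower, a gene on several lists being counted once. Beside this stand the 12.8% higher and 12.5% lower of all rows tested. The numbers tested are given above list by list, and nothing is read from the pooled counts. The block gave 24 higher and 22 lower, the threshold of 0.01 gave 10 and 9, and leaving out 1 library gave 11 to 21 higher and 8 to 19 lower. The lower count was 11 without shCON 1 or shRB 3, 10 without shCON 2 or shRB 1 and 8 without shCON 3. The replicate numbers pair libraries by number only: deviations from the group means correlated at 0.24, 0.35 and −0.00032 for same-numbered libraries, and shCON 1 correlated best with shRB 3 (0.27). The count of 0 higher glutathione S-transferases held in every edgeR fit with 1 library left out. Values that reversed, neither of them called, were AHRR (−0.11 without shCON 1, and up to 0.37 with another library left out) and MSL3P1 (−0.0030 without shRB 3, and up to 0.12).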
